A study of Mus musculus with 10 samples.

Results

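Respiratory complex I, the NADH:ubiquinone oxidoreductase of the mitochondrial inner membrane, was followed gene by gene in hearts taken whole from female mouse embryos of 13.5 dpc (days after mating). Its nuclear genes were chosen by name, from probe sets annotated with a single gene symbol of the Nduf family (Nduf a, b, c, s and v numbers, Ndufab1 and the Ndufaf assembly factors). They numbered 43 of the 18193 genes on the array with such a probe set. The rule by name used no measured value, though it was set with earlier results of these data known. Where a gene had several probe sets the one with the highest mean signal over all arrays stood for it. The 43 genes held 6 core subunits, 8 accessory subunits of the matrix arm, 19 accessory subunits of the membrane arm, the acyl carrier protein Ndufab1, Ndufa4 and 8 assembly factors. Ndufa11 and Ndufs6 were present only on probe sets shared with other gene symbols and were not analysed here.

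The study set 5 pools of Hccs het KO hearts, in which 1 copy of Hccs was knocked out conditionally in the heart, against 5 pools of littermate control hearts, with 4 to 5 hearts in a pool and 1 array per pool. The labels name neither the promoter that drives recombination nor the strain or the alleles of the controls. Hccs, the haem lyase of cytochromes c and c1, lies on the X chromosome, so through random X inactivation a heterozygous female carries both cells that have it and cells that lack it. Because whole hearts were measured, fewer cells of a type and less RNA per cell cannot be told apart. Values are log2 signals, on which 1 unit is a doubling, and every difference is given as knockout minus control.

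Complex I takes electrons from NADH at the tip of an arm that reaches into the matrix, passes them along iron-sulfur clusters to ubiquinone, and uses the energy to pump protons through an arm buried in the membrane. The core subunits carry out the chemistry and the pumping, and those of the pump itself are encoded in the mitochondrial genome. Accessory subunits surround the core and hold the arms together, while assembly factors help to build the complex and are absent from the finished enzyme. Electrons from complex I reach cytochrome c1 and cytochrome c further down the chain, the proteins that need Hccs to receive their haem. The heart depends heavily on this pathway after birth, and mutations in many of these genes cause cardiomyopathy or encephalopathy.

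The targeted gene was checked first. Hccs signals were 11.11, 11.31, 11.28, 11.20 and 11.25 in control replicates 1 to 5 and 10.81, 10.73, 10.90, 10.57 and 10.39 in knockout replicates 1 to 5. Every knockout pool lay below every control pool (log2 change -0.55, SE 0.090, limma adjusted p = 0.0225), although the adjusted p was between 0.0511 and 0.0563 when control replicate 2 or 3 or knockout replicate 2 or 4 was left out. Of 18 cardiomyocyte marker genes 17 lay above the 90th percentile of gene signals. All 18 had a negative log2 change, 5 fell past the threshold (Myh7, Myl2, Tnni1, Tnnc1 and Atp2a2, with log2 changes from -0.47 to -0.23), and the log2 of their summed signal ran from 19.22 to 19.32 in controls and from 18.95 to 19.12 in knockouts. Of the lists for other cell types, 1 of 10 fibroblast and mesenchyme markers rose (Tcf21), and none of 10 endothelial, 8 epicardial, 6 smooth muscle, 7 erythroid and 9 macrophage markers passed. By unadjusted limma p under 0.05, 3, 0, 4, 1 and 2 of the markers in those 5 lists did. All of these were lower except 1 of the 2 macrophage markers. At that level 16 of the 18 cardiomyocyte markers were lower, and 2 of the 10 fibroblast and mesenchyme markers were higher. Of all genes 7.48% were lower and 13.2% higher, and above the 90th percentile of signal 17.4% and 17.9%. At the adjusted threshold 0.945% of all genes fell and 1.63% rose. The 18S ribosomal RNA 5' control signal ran from 8.06 to 11.45 in controls and from 7.84 to 8.57 in knockouts. The array's 3 Gapdh control probe sets and its 3' beta-actin one were lower in every knockout than in any control, the Gapdh 3' one at 15.73 to 15.82 in controls and 15.53 to 15.66 in knockouts (exact two-sided permutation p = 0.00794, the smallest possible). The 3' minus 5' differences of Gapdh and beta-actin overlapped between genotypes (exact two-sided permutation p = 0.0952 and 0.222). The part of all these differences in the complex I values was not tested.

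Of the nuclear genes of complex I a single one passed the test, and small differences were about as common as over the whole array. The log2 change was within 0.1 of 0 for 25 of the 43 genes, or 58.1%, and for 56.5% of all genes. At an adjusted p of 0.05, 1 of the 43 genes passed, Ndufb7, which fell, and none rose (limma with Benjamini-Hochberg adjustment over all 18193 genes). Over all genes 2.58% passed, 1.63% higher and 0.945% lower, so the share of complex I genes called, 2.33%, was near the background. At the weaker level of an unadjusted limma p under 0.05 stood 11 genes, 25.6% of the 43 against 20.6% of all genes. Of these 6 were higher and 5 lower, 14.0% and 11.6% of the 43, against 13.2% and 7.48% of all genes. Complex I genes are bright, and among the 1820 genes above the 90th percentile of signal 5.55% passed, with 17.9% higher and 17.4% lower at an unadjusted p under 0.05. The median log2 change of the 43 genes was -0.019, against 0.025 over all genes. Of the 43, 27 had a negative and 16 a positive log2 change, while 60.5% of all genes had a positive one. The single genes ranged from -0.24 (Ndufa4) to 0.37 (Ndufb6). Without knockout replicate 3 the median was 0.011, and without knockout replicate 5 the change of Ndufa4 was -0.14.

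The 95% confidence intervals show how large a change could have gone unseen. They lay wholly within 0.3 log2 units of 0, a 1.23-fold difference, for 32 of the 43 genes, and for 57.3% of all genes. Within 0.5 log2 units, a 1.41-fold difference, lay 41 of the 43 and 81.4% of all genes. The exceptions among the 43 were Ndufb6 and Ndufaf2. The lowest limit of any interval was -0.49, that of Ndufa4, so a fall of 1 log2 unit lay outside the interval of every gene on the probe sets used. Ndufb4 and Ndufb1 had the lowest signals. The Ndufb4 probe set had a signal of 2.14, below the median of all values, 3.69, and Ndufb1 stood at 7.54, whereas 35 of the 43 genes lay above the 90th percentile of gene signals. No detection calls were used, and with so low a signal the Ndufb4 value says nothing about that gene.

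**Figure D1:**
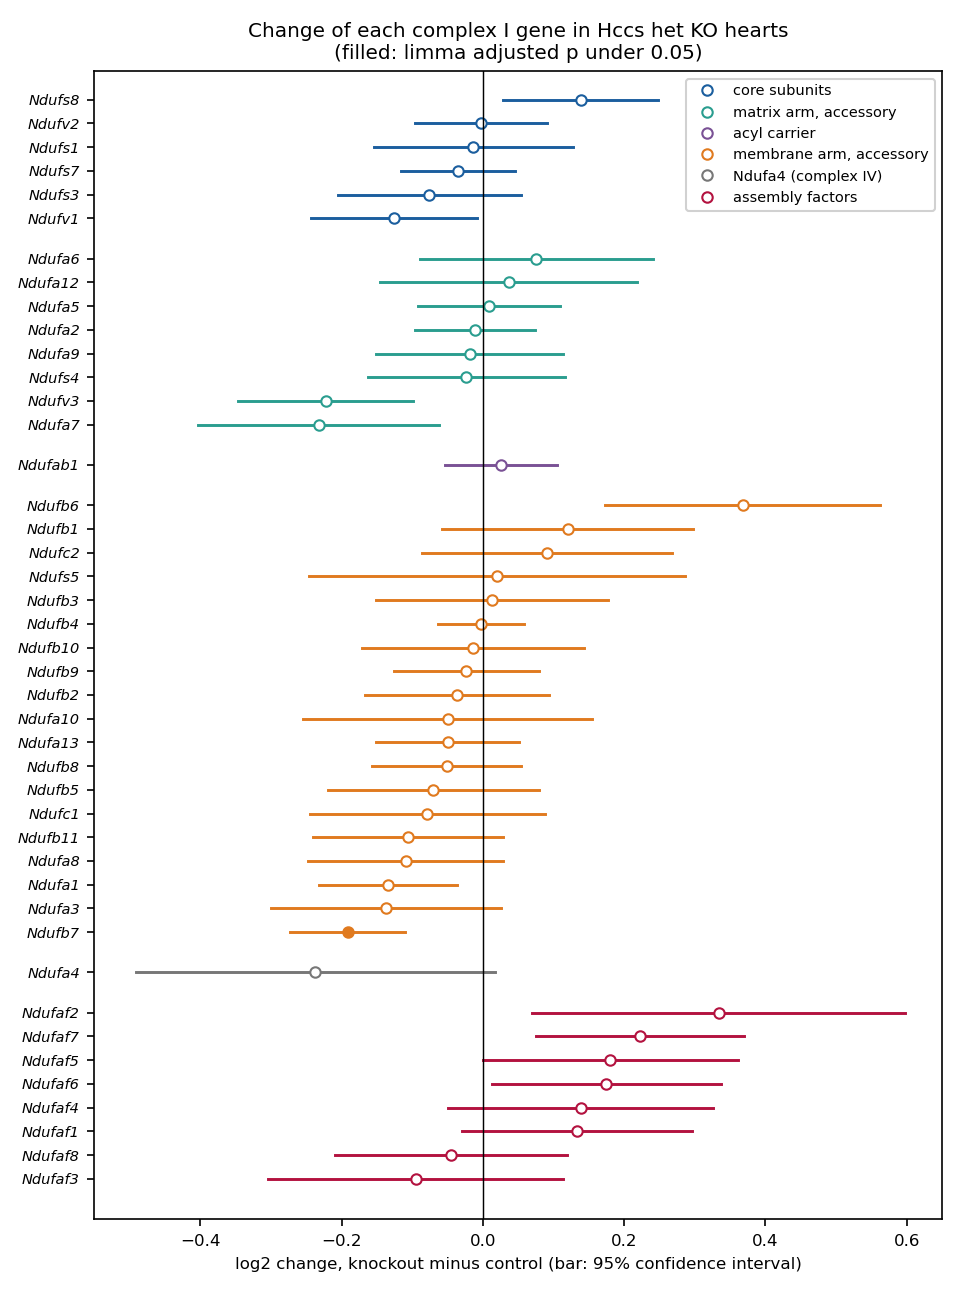
Log2 change (knockout minus control, x axis) of each of the 43 complex I genes, with the 95% confidence interval of the limma fit as a bar, sorted by role in the complex. The filled point, Ndufb7 at -0.19, is the gene that passed an adjusted p of 0.05; most points lie close to 0, and 6 of the 8 assembly factors lie to its right.

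Groups that did not overlap were seen for Ndufb7, Ndufv3 and Ndufb6, 3 of 43 genes or 6.98%, against 5.79% of all genes. The lower direction, with 2 of the 3, held 1.92% of all genes and 5.66% of the bright ones, and the higher direction 3.86% and 5.05%. Ndufb7, a membrane arm subunit held by disulfide bonds on the side of the intermembrane space, had signals of 12.94, 13.02, 12.93, 12.99 and 13.03 in control replicates 1 to 5. In knockout replicates 1 to 5 they were 12.82, 12.83, 12.69, 12.81 and 12.79. Each knockout pool was below the lowest control, and replicate 3 lay apart from the other knockouts. On the log2 scale Ndufb7 fell by 0.19 with an SE of 0.036, or 12.4% of the control signal, at a limma adjusted p of 0.0313. Its dimmer probe set, with an estimate of -0.28 (SE 0.064), pointed the same way and just missed the threshold over the 34945 probe sets tested (limma adjusted p = 0.0612). The call was lost when any 1 array other than knockout replicate 1 was left out (limma adjusted p from 0.0507 to 0.0733), and was kept without knockout replicate 1 (0.0265), while the log2 change stayed between -0.20 and -0.17.

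Ndufv3, a small accessory subunit near the NADH binding site, read 13.80, 13.97, 13.88, 13.88 and 13.94 in the controls and 13.78, 13.72, 13.52, 13.74 and 13.62 in the knockouts, in the order of replicates 1 to 5. The groups were separate but only just, since control replicate 1 and knockout replicate 1 lay side by side. The log2 change was -0.22 (SE 0.056, limma adjusted p = 0.0675), short of the threshold except without knockout replicate 1 (0.0376) or with quantile normalization. It is represented by a single probe set, so no second reading exists on this array.

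Ndufb6, an accessory subunit of the membrane arm, pointed the other way. Its signals were 14.36, 14.56, 14.58, 14.48 and 14.34 in control replicates 1 to 5 and 14.68, 15.03, 14.90, 14.93 and 14.61 in knockout replicates 1 to 5. The lowest knockout, replicate 5, stood just above the highest control, replicate 3. The log2 change of 0.37 (SE 0.087) was the largest of the 43 and missed the threshold (limma adjusted p = 0.0583). It passed when genes of low signal were left out, when arrays were centred on their medians, with array weights, with eBayes trend and robust settings, and without knockout replicate 1 (limma adjusted p from 0.0271 to 0.0491). A second Ndufb6 probe set, of which the signals ran from 13.06 to 13.29 in controls and from 13.14 to 13.29 in knockouts, showed a log2 change of 0.036 (SE 0.050). The 2 probe sets of Ndufb6 thus gave unlike values.

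The promoters of these 3 genes and of Ndufaf7, the assembly factor with the lowest p, are shown because the first 3 are the genes whose groups did not overlap and Ndufaf7 stands for the assembly factors. Each sequence runs 5′ to 3′ on the strand of the gene, from 250 bases before the annotated start to 50 bases after it, and comes from RefSeq on GRCm38.p6. Capitals mark a match to 1 of 5 motifs searched on both strands.
Ndufb7 (chr8:83566508-83566807, plus strand): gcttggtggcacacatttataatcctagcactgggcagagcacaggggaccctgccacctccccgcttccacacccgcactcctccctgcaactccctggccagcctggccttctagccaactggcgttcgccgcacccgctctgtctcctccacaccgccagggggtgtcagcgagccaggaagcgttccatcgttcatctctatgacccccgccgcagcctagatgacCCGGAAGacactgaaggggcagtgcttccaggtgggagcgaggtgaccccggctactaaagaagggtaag
Ndufb6 (chr4:40279372-40279671, minus strand): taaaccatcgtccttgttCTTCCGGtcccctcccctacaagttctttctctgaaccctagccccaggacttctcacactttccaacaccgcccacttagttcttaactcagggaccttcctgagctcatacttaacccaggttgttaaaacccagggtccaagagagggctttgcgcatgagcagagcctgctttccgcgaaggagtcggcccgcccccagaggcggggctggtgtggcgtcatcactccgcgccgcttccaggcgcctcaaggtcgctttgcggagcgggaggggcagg
Ndufv3 (chr17:31519865-31520164, plus strand): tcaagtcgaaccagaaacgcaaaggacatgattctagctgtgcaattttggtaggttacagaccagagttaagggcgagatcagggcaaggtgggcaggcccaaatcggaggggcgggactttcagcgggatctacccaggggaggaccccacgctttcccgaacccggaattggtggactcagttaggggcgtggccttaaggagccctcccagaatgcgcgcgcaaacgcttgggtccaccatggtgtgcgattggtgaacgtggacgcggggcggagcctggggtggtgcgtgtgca
Ndufaf7 (chr17:78936885-78937184, plus strand): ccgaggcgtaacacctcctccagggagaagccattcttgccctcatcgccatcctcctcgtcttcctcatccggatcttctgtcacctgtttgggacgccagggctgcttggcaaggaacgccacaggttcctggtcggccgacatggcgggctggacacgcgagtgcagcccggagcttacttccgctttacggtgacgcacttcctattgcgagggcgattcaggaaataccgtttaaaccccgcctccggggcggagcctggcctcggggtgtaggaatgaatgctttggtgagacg
The capitals in Ndufb7 and Ndufb6 are the ETS core CCGGAAG or its reverse complement, beginning 20 and 232 bases before the start. Ndufv3 and Ndufaf7 hold none of the 5 motifs in this window.

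Promoters in the same window were found for 39 of the 43 genes. The motifs were chosen after the expression values were seen, and they stand for factors known to act on respiratory chain genes or on the amino acid stress response. GCGCATGC, from the site of NRF1, was in the promoters of 4 genes, the subunits Ndufa6 and Ndufa8 and the assembly factors Ndufaf4 and Ndufaf5, or 10.3% of the 39 against 3.05% of all 27025 genes with a promoter. A longer form of this site, with 2 more letters, was searched first and was in 2 genes, Ndufaf4 and Ndufaf5, or 5.13% against 1.07%. CCGGAAG, the ETS core used by GABP, was in 6 (15.4% against 9.93%), namely Ndufaf1, Ndufaf8, Ndufb6, Ndufb7, Ndufs3 and Ndufs8. AAGATGGC, the core recognised by YY1, was in 7 (17.9% against 3.19%), namely Ndufa3, Ndufa9, Ndufaf8, Ndufb8, Ndufc1, Ndufs4 and Ndufs7. The oestrogen-related receptor motif TCAAGGTCA and the ATF4 composite element TGATGNAA were in none, and in 0.466% and 4.51% of all genes. The letters of CCGGAAG and AAGATGGC can overlap in AAG, so a promoter such as that of Ndufaf8 may be counted under both. The median GC content was 59.7% in these promoters and 52.7% in all, and its part in these shares was not tested.

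Among the 6 core subunits measured none passed, and the median log2 change was -0.024. Ndufv1, which binds NADH and the flavin, had signals of 13.42, 13.51, 13.44, 13.51 and 13.57 in control replicates 1 to 5 and 13.44, 13.44, 13.21, 13.39 and 13.33 in knockout replicates 1 to 5. The groups overlapped, and the log2 change was -0.13 (SE 0.052, limma adjusted p = 0.215). All 3 probe sets of Ndufv1 pointed down, with estimates from -0.14 to -0.092. Ndufs8, a subunit with iron-sulfur clusters close to the ubiquinone site, read 14.22, 14.34, 14.23, 14.28 and 14.37 in controls against 14.49, 14.50, 14.33, 14.47 and 14.34 in knockouts. Its log2 change was 0.14 (SE 0.049, limma adjusted p = 0.158), with knockout replicates 3 and 5 among the controls. Its 5 other probe sets gave estimates from -0.14 to 0.094, 4 of them negative. Of those 4, 1 had a signal of 2.74, below the median of all values, and another had -0.022 (SE 0.055). Those with signals of 13.05 and 13.02 had -0.14 and -0.12, so the direction for Ndufs8 depends on the probe set.

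On the probe sets used, the remaining core subunits stayed near their control signals. Ndufv2, an iron-sulfur subunit beside Ndufv1 and the brightest core gene, read 14.53, 14.56, 14.52, 14.61 and 14.64 in control replicates 1 to 5 and 14.59, 14.59, 14.46, 14.64 and 14.57 in knockout replicates 1 to 5. The groups overlapped almost fully, at 14.57 ± 0.05 in controls and 14.57 ± 0.07 in knockouts (log2, mean ± SD, n = 5 each). Ndufs1, which holds iron-sulfur clusters, and Ndufs7, which holds the last cluster before ubiquinone, had log2 changes of -0.014 (SE 0.063) and -0.035 (SE 0.036). Ndufs3 had -0.076 (SE 0.058). The dimmer probe set of Ndufs7 had -0.18 (SE 0.081).

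None of the 8 matrix arm accessory subunits passed, and their median log2 change was -0.015. Besides Ndufv3, Ndufa7 had an unadjusted p under 0.05. Its signals were 12.91, 12.91, 12.85, 12.92 and 13.11 in control replicates 1 to 5 and 12.87, 12.69, 12.47, 12.80 and 12.70 in knockout replicates 1 to 5. Knockout replicate 1 lay within the control range and the rest below it. The log2 change was -0.23 (SE 0.076, limma adjusted p = 0.136), and all 5 Ndufa7 probe sets had negative estimates, from -0.23 to -0.032. Ndufs4, whose loss in mice gives a fatal encephalopathy used as a model of complex I disease, had a log2 change of -0.024 (SE 0.062). Ndufa9, which binds a nicotinamide nucleotide, had -0.019 (SE 0.059). Ndufa12, the brightest of this group, read 14.36, 14.47, 14.41, 14.06 and 14.47 in controls and 14.28, 14.50, 14.39, 14.45 and 14.33 in knockouts. Control replicate 4 lay below all other arrays, and the log2 change of 0.037 (SE 0.081) was -0.037 without it. Ndufa2, Ndufa5 and Ndufa6 had log2 changes between -0.012 and 0.076.

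Of the 19 membrane arm accessory subunits Ndufb7 fell and 18 did not pass, with a median log2 change of -0.050, and 14 of the 19 were negative. Ndufa1 and Ndufb11 are X-linked, as Hccs is. Ndufa1, a short subunit needed early in assembly, read 14.19, 14.24, 14.21, 14.27 and 14.23 in controls and 14.21, 14.14, 14.01, 14.11 and 14.01 in knockouts. Only knockout replicate 1 reached the control range, and the log2 change was -0.13 (SE 0.044, limma adjusted p = 0.133; 0.0481 without knockout replicate 1). Ndufb11 had a log2 change of -0.11 (SE 0.060). Ndufa8, Ndufs5 and Ndufb10 share with Ndufb7 the paired cysteines that are oxidised in the intermembrane space. Their log2 changes were -0.11 (SE 0.062), 0.020 (SE 0.119) and -0.014 (SE 0.070). None of these 3 passed.

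Ndufab1, the mitochondrial acyl carrier protein that is bound in both arms, read 14.40, 14.51, 14.47, 14.47 and 14.50 in control replicates 1 to 5 and 14.52, 14.52, 14.45, 14.55 and 14.44 in knockout replicates 1 to 5. The groups overlapped, at 14.47 ± 0.04 in controls and 14.50 ± 0.05 in knockouts (log2, mean ± SD, n = 5 each). Its log2 change of 0.026 had a 95% interval from -0.053 to 0.10. Ndufa4, named as a complex I protein but now known as a subunit of complex IV, was steady in the controls, at 13.36, 13.32, 13.37, 13.26 and 13.37 in replicates 1 to 5. The knockout signals were 13.32, 13.40, 13.02, 13.01 and 12.73. Knockout replicate 1 lay within the control range and replicate 2 just above it, while 3, 4 and 5 stood below every control. The log2 change was -0.24 (SE 0.114, limma adjusted p = 0.269), and with an SD of 0.27 the knockout pools differed among themselves more than in any other of the 43 genes.

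**Figure D2:**
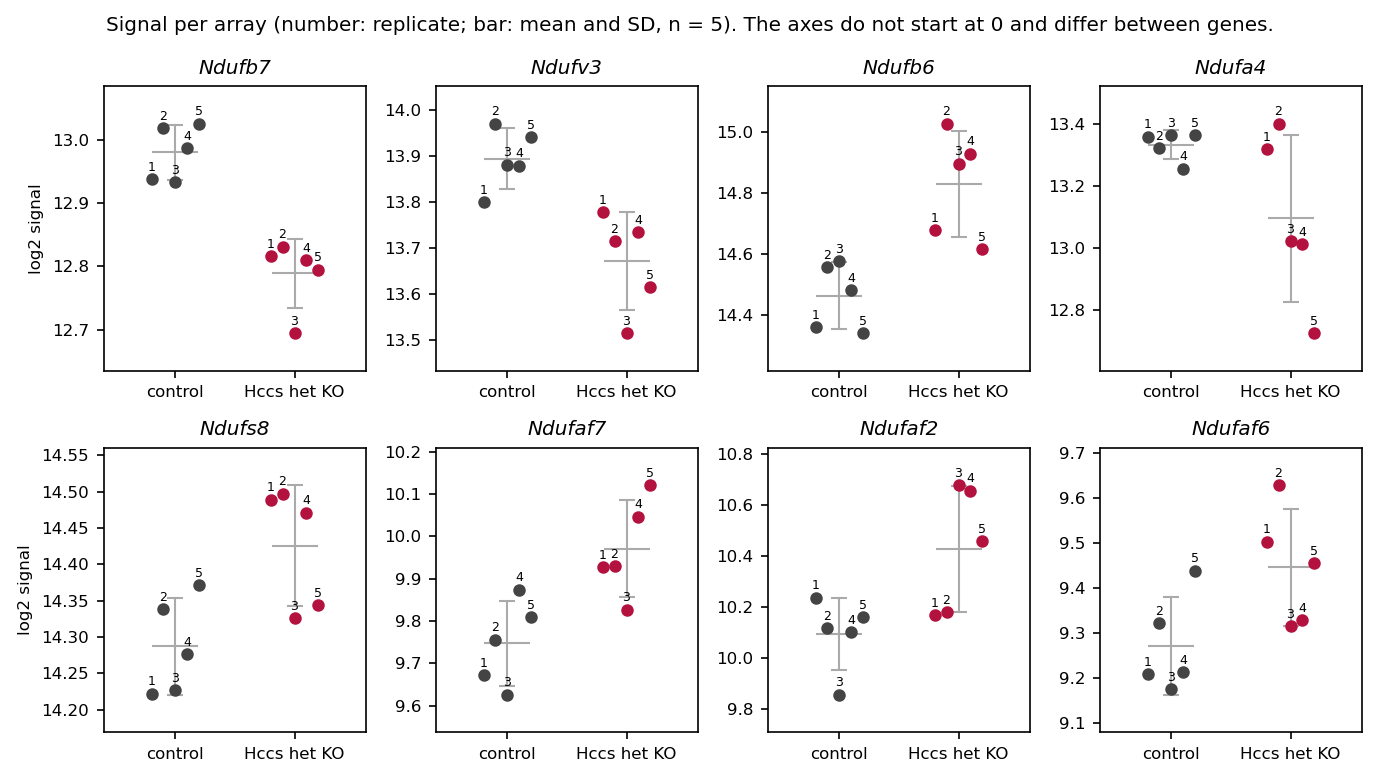
Log2 signal of 8 complex I genes in each array (points, numbered by replicate) for control and Hccs het KO hearts, with mean and SD as bars (n = 5 each); each panel has its own axis, which does not start at 0. The groups are separate for Ndufb7, Ndufv3 and Ndufb6, and for Ndufa4 and Ndufaf2 knockout replicates 3, 4 and 5 stand away from replicates 1 and 2.

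None of the 8 assembly factors measured passed. Of the 8, 6 had a positive log2 change, where 60.5% of all genes did, the median was 0.16, and Ndufaf7, Ndufaf2, Ndufaf6 and Ndufaf5 had an unadjusted limma p under 0.05 in the higher direction. That direction was reached by 13.2% of all genes. The 34 subunits other than Ndufa4 had a median of -0.024, with 10 positive. Whether assembly factors and subunits differ was not tested.

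Ndufaf7, a methyltransferase that acts early in assembly, read 9.67, 9.76, 9.63, 9.87 and 9.81 in control replicates 1 to 5. In knockout replicates 1 to 5 it read 9.93, 9.93, 9.83, 10.05 and 10.12. Knockout replicate 3 alone fell within the control range. The log2 change was 0.22 (SE 0.066, limma adjusted p = 0.107), from a single probe set whose probes may also match other sequences. Ndufaf2, a relative of the subunit Ndufa12 that sits in its place on late intermediates, had signals of 10.23, 10.12, 9.86, 10.10 and 10.16 in controls and 10.17, 10.18, 10.68, 10.65 and 10.46 in knockouts. As for Ndufa4, knockout replicates 3, 4 and 5 stood apart from 1 and 2, here upward (log2 change 0.33, SE 0.118, limma adjusted p = 0.158).

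Ndufaf6, needed for the early membrane arm intermediate, read 9.21, 9.32, 9.18, 9.21 and 9.44 in controls and 9.50, 9.63, 9.32, 9.33 and 9.46 in knockouts. Its log2 change was 0.17 (SE 0.072, limma adjusted p = 0.214), with control replicates 2 and 5 among the knockouts. Ndufaf5, which hydroxylates Ndufs7, read 9.15, 9.14, 8.98, 9.37 and 9.39 in controls and 9.39, 9.42, 9.28, 9.50 and 9.34 in knockouts. Control replicates 4 and 5 stood among the knockouts (log2 change 0.18, SE 0.081, limma adjusted p = 0.242). Ndufaf4, which acts on the ubiquinone module and is the brightest assembly factor, read 11.39, 11.40, 11.08, 11.44 and 11.43 in controls and 11.60, 11.58, 11.55, 11.39 and 11.31 in knockouts. Control replicate 3 lay below all other arrays. The log2 change was 0.14 (SE 0.084), or 0.071 without control replicate 3, and its dimmer probe set one of 0.28 (SE 0.096). Ndufaf1, a part of the membrane arm assembly complex, had 0.13 (SE 0.073). Ndufaf3, the partner of Ndufaf4, and Ndufaf8, the partner of Ndufaf5, had -0.095 (SE 0.093) and -0.045 (SE 0.073).

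Without control replicate 3, the lowest array for the assembly factors, the median of the 8 was 0.12 and 2 of them, Ndufaf2 and Ndufaf7, had an unadjusted limma p under 0.05. The count was also 2 without control replicate 1 and without knockout replicate 1, 2 or 5, and again Ndufaf2 and Ndufaf7 were those 2, as they were with quantile normalization and with eBayes trend and robust settings. Without both arrays numbered 3 the 2 were Ndufaf6 and Ndufaf7, and with the replicate number as a block Ndufaf5, Ndufaf6 and Ndufaf7 remained. The share of all genes at that level was not computed under these settings, so these counts have no background beside them. The number of all genes past the adjusted threshold, 469, also moved, to between 105 and 1042 with 1 array left out.

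Genes outside the Nduf family complete the pathway. Of 11 further assembly factors 10 were measured, none passed, and 8 had a positive log2 change, with a median of 0.13. Over all genes 2.58% passed and 60.5% had a positive log2 change. Ecsit and Foxred1, which help build the membrane arm and later intermediates, had log2 changes of 0.28 (SE 0.080, limma adjusted p = 0.101) and 0.24 (SE 0.075, limma adjusted p = 0.127), both with an unadjusted p under 0.05. These 2 and Acad9 were named after their values were seen. Of the 10, 2 were thus higher at an unadjusted limma p under 0.05, which 13.2% of all genes were. Dmac1, the brightest of these, had -0.15 (SE 0.072), and Acad9, the flavoprotein of the same assembly complex as Ndufaf1 and Ecsit, -0.0029 (SE 0.068). Of the 7 subunits of the mitochondrial genome ND5, a proton-pumping subunit, had a probe set with a single symbol, at 15.43 ± 0.12 in controls and 15.51 ± 0.18 in knockouts (log2, mean ± SD, n = 5 each; log2 change 0.075, SE 0.091). Among 13 subunits of complexes II and III, the next carriers in the chain, Uqcrc2 rose. It read 14.39, 14.71, 14.58, 14.54 and 14.43 in control replicates 1 to 5 and 14.93, 14.96, 14.93, 14.85 and 14.69 in knockout replicates 1 to 5, with only knockout replicate 5 inside the control range (log2 change 0.34, SE 0.072, limma adjusted p = 0.0442). Uqcrc2 had 2 probe sets, of which the brighter was used. Its call was not followed in the other probe set, under other settings or with arrays left out. The other 12 subunits missed the threshold, which 2.58% of all genes passed. The median of the 13 was -0.081, and 9 were negative. At an unadjusted limma p under 0.05, 4 were lower and 1 higher, against 7.48% and 13.2% of all genes. All 13 lay above the 90th percentile of signal, where 17.4% of genes were lower and 17.9% higher at that level. The brightest of the 13, Uqcrb, had -0.11 (SE 0.043), and Cyc1, which is cytochrome c1, had -0.18 (SE 0.067), both among the 4 lower.

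Single arrays were low or high for many of the genes at once. Knockout replicate 3 was the lowest of the 10 arrays for 20 of the 43 genes, and control replicate 5 the highest for 12. How often these arrays were lowest or highest over all genes was not counted. In knockout replicate 3, 36 of the 43 genes lay under the mean of the knockouts, and in knockout replicate 4 only 7 did. The controls were spread as widely, with 37 of the 43 under the control mean in control replicate 3 and 6 in control replicate 5. Over all genes the shares in these 4 arrays were 59.4%, 45.6%, 64.9% and 31.4%. The median deviation of the 43 genes from their own means ran from -0.041 to 0.092 in controls and from -0.11 to 0.056 in knockouts, so the genotypes overlapped. Knockout replicate 3 was also the lowest array for the cardiomyocyte markers, with a median deviation of -0.23. Those markers, unlike the complex I genes, were separated by genotype, from 0.075 to 0.16 in controls and from -0.23 to -0.032 in knockouts. In 33 of the 43 genes the SD of the knockouts exceeded that of the controls, against 47.9% of all genes, and since the genes share the same arrays these are not independent counts. The part of these arrays and of the marker differences in the complex I values was not tested.

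**Figure D3:**
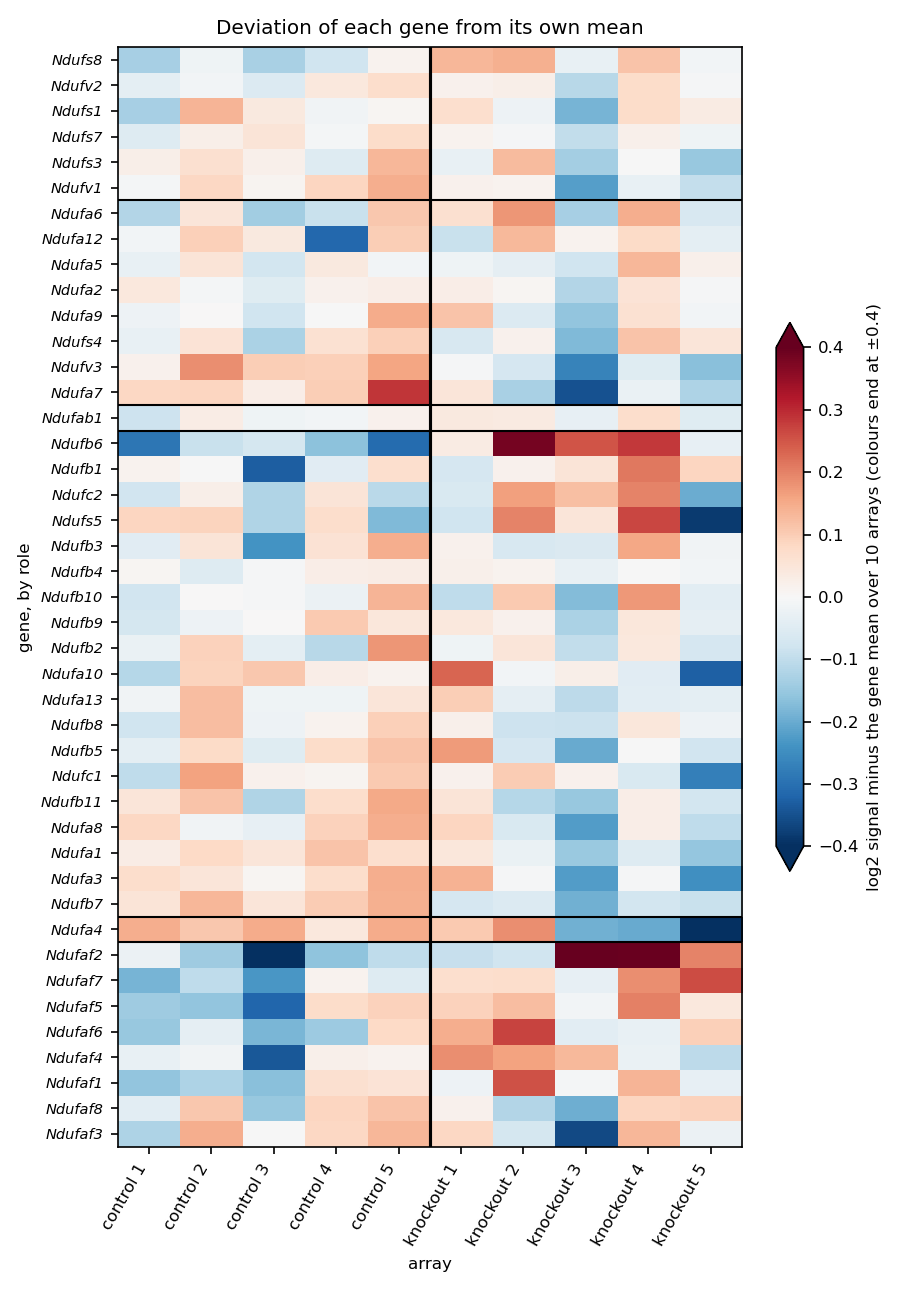
Deviation of each complex I gene (rows, by role) from its own mean over the 10 arrays (columns), in log2 units, with colours ending at ±0.4. The column of knockout replicate 3 is blue for most subunits. In the bottom block most assembly factors are blue in control replicates 1, 2 and 3, with medians of -0.13, -0.070 and -0.21. In knockout replicate 3 their median is -0.022, and Ndufaf2 and Ndufaf4 are red.

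**Figure D4:**
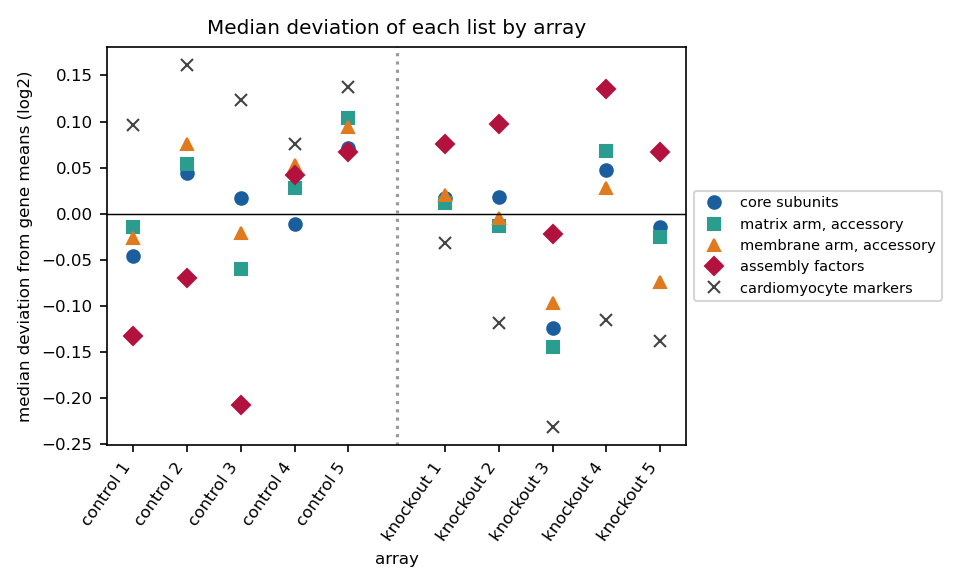
Median deviation (log2, y axis) of the genes of each role and of the cardiomyocyte markers from their own means, by array. The cardiomyocyte markers are at or above 0.075 in every control and at or below -0.032 in every knockout, while the 3 sets of subunits overlap between genotypes and the assembly factors are lowest in control replicate 3.

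The 43 genes were read by 87 probe sets, and 22 genes had more than 1. Among these 22, 8 had probe sets of opposite direction (Ndufa10, Ndufa12, Ndufa3, Ndufb5, Ndufc2, Ndufs4, Ndufs8 and Ndufv2). Of the 87, 1 passed an adjusted p of 0.05 over all 34945 probe sets, the brighter one of Ndufb7. Ndufc2, a membrane arm subunit, had 0.091 in its brightest probe set and -0.16 and -0.20 in the next ones, all with signals above 13. Ndufb9 and Ndufb2 had -0.024 and -0.036 in the brightest and -0.22 and -0.25 in the second. Ndufa3, Ndufc1 and Ndufs7 had -0.14, -0.079 and -0.035 in the brightest and -0.23, -0.21 and -0.18 in the second. Other genes had a higher estimate in the second, among them Ndufb5 (-0.070 and 0.098) and Ndufa10 (-0.050 and 0.47). The second probe set of Ndufa10 was much dimmer, with a signal of 6.06 against 13.07, and its estimate had an SE of 0.22. For 8 of the 43 genes the probe set used carries the array maker's suffix for probes that may also match other sequences, namely Ndufv1, Ndufa12, Ndufa13, Ndufa2, Ndufab1, Ndufaf7, Ndufb11 and Ndufc2, and several Nduf genes have processed pseudogenes, so those readings may include near copies.

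**Figure D5:**
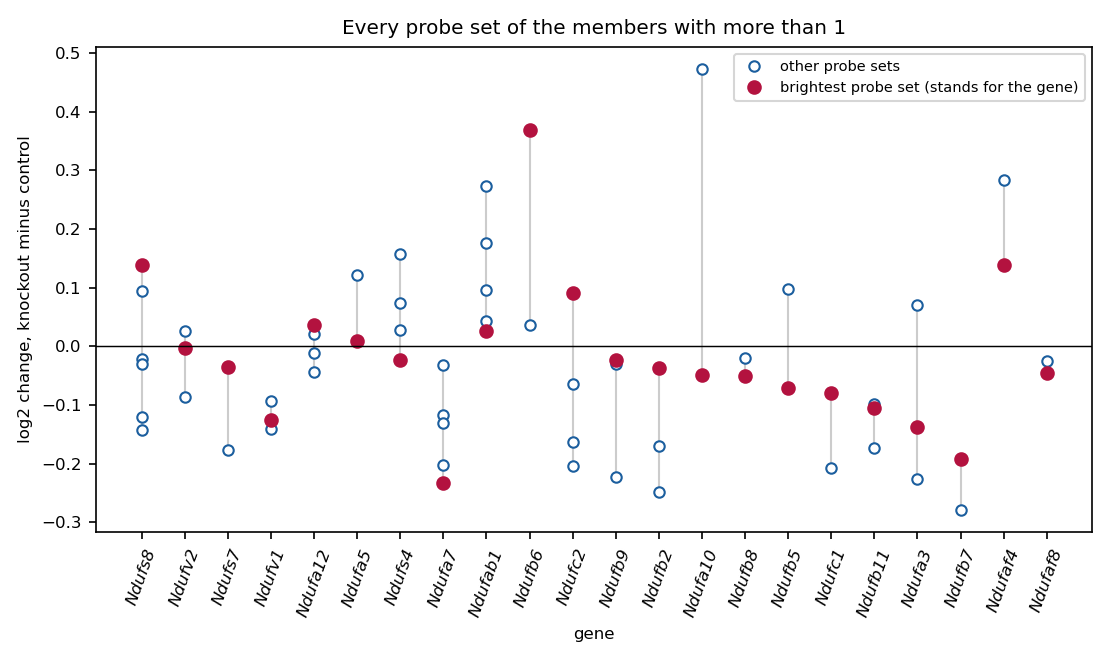
Log2 change (knockout minus control, y axis) of every probe set of the 22 complex I genes with more than 1; the filled point is the brightest probe set, which stands for the gene, and open points are the others. Ndufb7 and Ndufa7 are below 0 in all their probe sets, while Ndufs8 and Ndufc2 lie on both sides of 0.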

How the data were processed

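RNA of 10 pools of whole embryonic hearts was hybridised to Affymetrix arrays. Deposited were log2 signals per probe set, made by the authors with RMA and Partek per the submitters' processing notes; versions and the background option are not given in the sources used here. Values from 0.602 to 16.6 fit that scale. RMA usually equalises probe signals between arrays, so a change of total RNA cannot be seen. Array medians ran from 3.65 to 3.76.

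Of 45101 probe sets, 34945 with 1 gene symbol in the platform annotation were kept, and the brightest by 10-array mean stood for each of 18193 genes. All 43 genes matched RefSeq (GRCm38.p6) by Entrez number. Knockout and control were compared by lmFit and eBayes of limma (3.58.1, under R 4.3.3; genotype as the only term, two-sided), with Benjamini-Hochberg adjustment over all genes, a threshold of 0.05 and no filter. SE and 95% intervals are those of the moderated fit. Lists are described by counts and medians without a test. The code was tested on simulated data. Genes and lists were chosen with earlier results of these data known. Values by array are given for complex I genes past the threshold or with an unadjusted p under 0.05, the brightest of each role, Hccs and Uqcrc2; marker genes and the brightest of the other lists are given in ranges or as changes, and others are named for their role, for low signal or for probe sets that disagree. Same-numbered arrays of the 2 genotypes did not deviate together (r from -0.091 to 0.077 over genes), so the number was not taken as a pairing. Tried as alternatives were a block for the replicate number, other scaling, filters, probe set choice, eBayes and weight settings, thresholds and arrays left out. The count of assembly factors under each was added after seeing the data. Plots were drawn with matplotlib 3.10.9.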

Additional observations from a re-analysis of the deposited data

Results flagged for a closer look

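Within each genotype an array was marked where its gap to the nearest other array exceeded 0.71 of the range of the 5 arrays. Of 86 such groups (43 genes in 2 genotypes) 5 were marked, 5.81%, where chance marks about 1 in 20, or 5%. Ndufa12 was 14.06 in control replicate 4, against 14.36 in the next lowest control. Ndufa7 was 13.11 in control replicate 5, against 12.92 in the next highest. Control replicate 3 held the low values of Ndufaf4, at 11.08 against 11.39, and of Ndufb1, at 7.21 against 7.49; without that array the log2 change of Ndufaf4 was 0.071. Ndufb7 was 12.69 in knockout replicate 3, against 12.79 in the next lowest knockout; without that array its log2 change was -0.17 (limma adjusted p = 0.0597).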

How the results depend on the processing

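The median log2 change of the 43 genes, at -0.019, lay between -0.044 and 0.011 in all 20 alternatives that refit it, and moved by less than the spread between arrays in each. The count of genes called did change. None was called lower with the replicate block, median centring, either filter on low signal, the most variable probe set, both arrays numbered 3 left out or an adjusted p under 0.01. With quantile normalization or an adjusted p under 0.1 it was 2 (Ndufb7 and Ndufv3). With 1 array left out 0 to 3 were lower and 0 to 1 higher. The count called higher was 1, Ndufb6, with median centring, either filter, eBayes trend and robust, array weights or an adjusted p under 0.1. Of all genes tested, 469 passed; the count was 36 with the replicate block, 759 with the filter at the median, 945 with array weights, 30 without both arrays numbered 3, and 105 to 1042 with 1 array left out. With the replicate block Ndufb7 had an adjusted p of 0.0981 and Hccs, at -0.55, 0.0735 (limma). Hccs had -0.59 without both arrays numbered 3 (limma adjusted p = 0.0715) and -0.60 to -0.48 with 1 left out; its call was lost in 6 of 20 alternatives and its direction in none. Ndufs8 reversed with the mean of probe sets (-0.014) and the most variable one (-0.14). Ndufa12 reversed with the most variable one (-0.011) and ran from -0.037 to 0.066 with 1 array left out. Ndufv2, at -0.0027, reversed to 0.0076 with quantile normalization, 0.013 with median centring, 0.026 with the most variable probe set, 0.0046 with array weights and 0.011 without both arrays numbered 3, and ran from -0.021 to 0.025 with 1 left out. Signal over background was not given, and 5 arrays per genotype limit the precision.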
